A study of Mus musculus with 16 samples.

Results

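Homeostatic microglia genes are the 9 genes P2ry12, P2ry13, Tmem119, Cx3cr1, Csf1r, Siglech, Gpr34, Aif1 and Olfml3, which microglia, the brain's own macrophages, express in their resting, surveying state. Of these, Aif1, Csf1r and Cx3cr1 are also expressed by other macrophages. The 9 were chosen by name, as widely used markers, and not by a threshold on values in these libraries, but with earlier results of these data known. Each matched 1 Ensembl identifier on the mouse genome build GRCm38, so that the set holds 9 of the 49671 genes listed in each count file, and all 9 passed the low-count filter that left 18875 genes for testing. Their levels in whole-brain RNA bear on whether microglia differ in amount or in state.

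Microglia depend for survival on the receptor Csf1r and its ligands Csf1 and Il34, and their identity in the brain is maintained by transforming growth factor beta and by transcription factors such as PU.1 (the Spi1 gene), Irf8 and Sall1. In the surveying state they carry purinergic and chemokine receptors at high levels. In mice, strong activation is known to lower P2ry12, Tmem119 and Cx3cr1 while lysosomal, Fc receptor and antigen-presentation genes increase, so the balance within such a set is often read beside its sum.

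RNA described as whole brain was sequenced from 1 mouse per library, with 4 C57BL/6 mice in each of 4 groups, collected on postnatal day 32. All groups had a dam injected intraperitoneally on gestation day 16 and were themselves injected intraperitoneally on postnatal day 30. In LPS-LPS both injections were lipopolysaccharide (LPS), a bacterial cell-wall component that triggers innate immune signalling; in LPS-saline only the dam received LPS and the offspring saline; in saline-LPS the dam received saline and the offspring LPS; in saline-saline both received saline. The group names give 2 injection words, taken here in the order of the treatment protocol, dam before offspring, which the labels do not spell out. No genetic change was named for any group. Dams and litters are not given, so mice of a group may be littermates, and the p-values reflect variation among the mice sampled.

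Libraries held 25729919 to 38571036 counts in genes. The cerebellar granule cell gene Gabra6 was under 1 CPM (counts scaled to library size) in 8 libraries, and these are set apart by filled symbols in the plots. They were unevenly spread: saline-saline replicates 1, 2 and 3, LPS-saline replicates 1 and 2, saline-LPS replicates 1 and 2, and LPS-LPS replicate 2. LPS-LPS replicate 3 had 503 CPM of Xist and 0 CPM of the Y-linked Ddx3y although the offspring were described as male. The main calls of Aif1 and the counts of called list genes are also given without it. Calls under other settings, such as DESeq2 or the replicate number as a block, include it and were not recalculated without it. The tissue label was checked against its markers: neuronal, astrocyte and oligodendrocyte markers were abundant in all 16 libraries, and every one of the 9 microglial genes was counted at least 92 times in each library. Such markers do not tell a whole brain from a part of it. Gabra6 at 0 to 0.28 CPM in the 8 libraries does not bear out a whole brain with cerebellum there, and the dissection was not tested.

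Promoter sequences are shown for P2ry12 and Aif1, which had the lowest and the highest signed log2 fold change of the 9 between prenatal LPS and prenatal saline; P2ry12 was not called. They are the 250 bases before the RefSeq start on GRCm38.p6, written 5′ to 3′ on the gene's strand. Capitals mark 2 motifs of 6 letters known from PU.1 and other ETS factors, GAGGAA and GGAAGT, searched on both strands; the 2 can overlap, since GAGGAA may run on into GGAAGT. The P2ry12 window is chr3:59262986-59263235 (minus strand) and the Aif1 window is chr17:35176053-35176302 (minus strand).
P2ry12: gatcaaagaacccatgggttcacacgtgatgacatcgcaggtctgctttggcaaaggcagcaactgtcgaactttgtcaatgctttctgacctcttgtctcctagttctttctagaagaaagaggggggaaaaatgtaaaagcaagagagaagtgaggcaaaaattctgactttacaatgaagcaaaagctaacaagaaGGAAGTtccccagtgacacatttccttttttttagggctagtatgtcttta
Aif1: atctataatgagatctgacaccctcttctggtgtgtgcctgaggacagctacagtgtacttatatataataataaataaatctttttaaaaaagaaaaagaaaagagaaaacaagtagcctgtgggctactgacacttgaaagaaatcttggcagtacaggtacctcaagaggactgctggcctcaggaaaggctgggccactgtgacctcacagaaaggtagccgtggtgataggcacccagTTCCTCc

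Windows were searched for 6 of the 9 genes (P2ry12, P2ry13, Cx3cr1, Siglech, Aif1 and Olfml3). Csf1r was left out of the search, and Tmem119 and Gpr34 had no window at hand. GAGGAA was found in 2 of these 6, in P2ry13 48 bases before the start and in Aif1 7 bases before it, there on the other strand and so printed as its reverse complement TTCCTC. The Aif1 window reaches down to 35176053 while the GENCODE gene runs up to 35176068, so this match lies inside the gene as annotated there. Of all 32851 windows of this length, 23.3% held GAGGAA on either strand. GGAAGT was found in P2ry12, 51 bases before the start, and in Siglech, 156 bases before it, against 19.7% of all windows. P2ry12 and Aif1 thus each held 1 of the motifs and not the same one. A match describes the letters only.

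Per kilobase of exon, Csf1r was the most abundant of the 9, with 13 ± 2.4 CPM per kb over all 16 libraries (mean ± SD). Tmem119 followed with 10.2 ± 1.32 CPM per kb. Each was above the next gene in 16 of 16 libraries. Cx3cr1 averaged 6.91 CPM per kb and P2ry12 averaged 6.33 CPM per kb, with Cx3cr1 the higher in 13 of 16 libraries. Siglech (3.15), Aif1 (3.12) and Gpr34 (3.07 CPM per kb) could not be put in order, as Siglech exceeded Aif1 in 8 of 16 libraries and Aif1 exceeded Gpr34 in 8 of 16. Olfml3 (2.44) and P2ry13 (2.37 CPM per kb) were lowest, Olfml3 the higher in 11 of 16. All levels below are CPM scaled by the trimmed mean of M-values, without division by length, and fold changes are log2 values ± standard error. Tests are quasi-likelihood tests in edgeR, with p-values adjusted over all tested genes by the Benjamini-Hochberg method.

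Prenatal LPS was compared with prenatal saline before each pubertal injection and averaged over both (8 mice against 8), which asks whether the dam's exposure left a difference in these genes in the adolescent brain. In the averaged comparison Aif1 rose and the other 8 genes did not pass the threshold of 0.05. Over all tested genes 4.9% were called higher and 2.92% lower in this comparison, and 1 of 9 members called higher is not set apart from that background by its count. The members' median log2 fold change was 0.040, against -0.0054 for all tested genes. Whole-brain RNA cannot tell fewer cells of a type from less RNA per cell, which applies to every level given here.

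**Figure D1:**
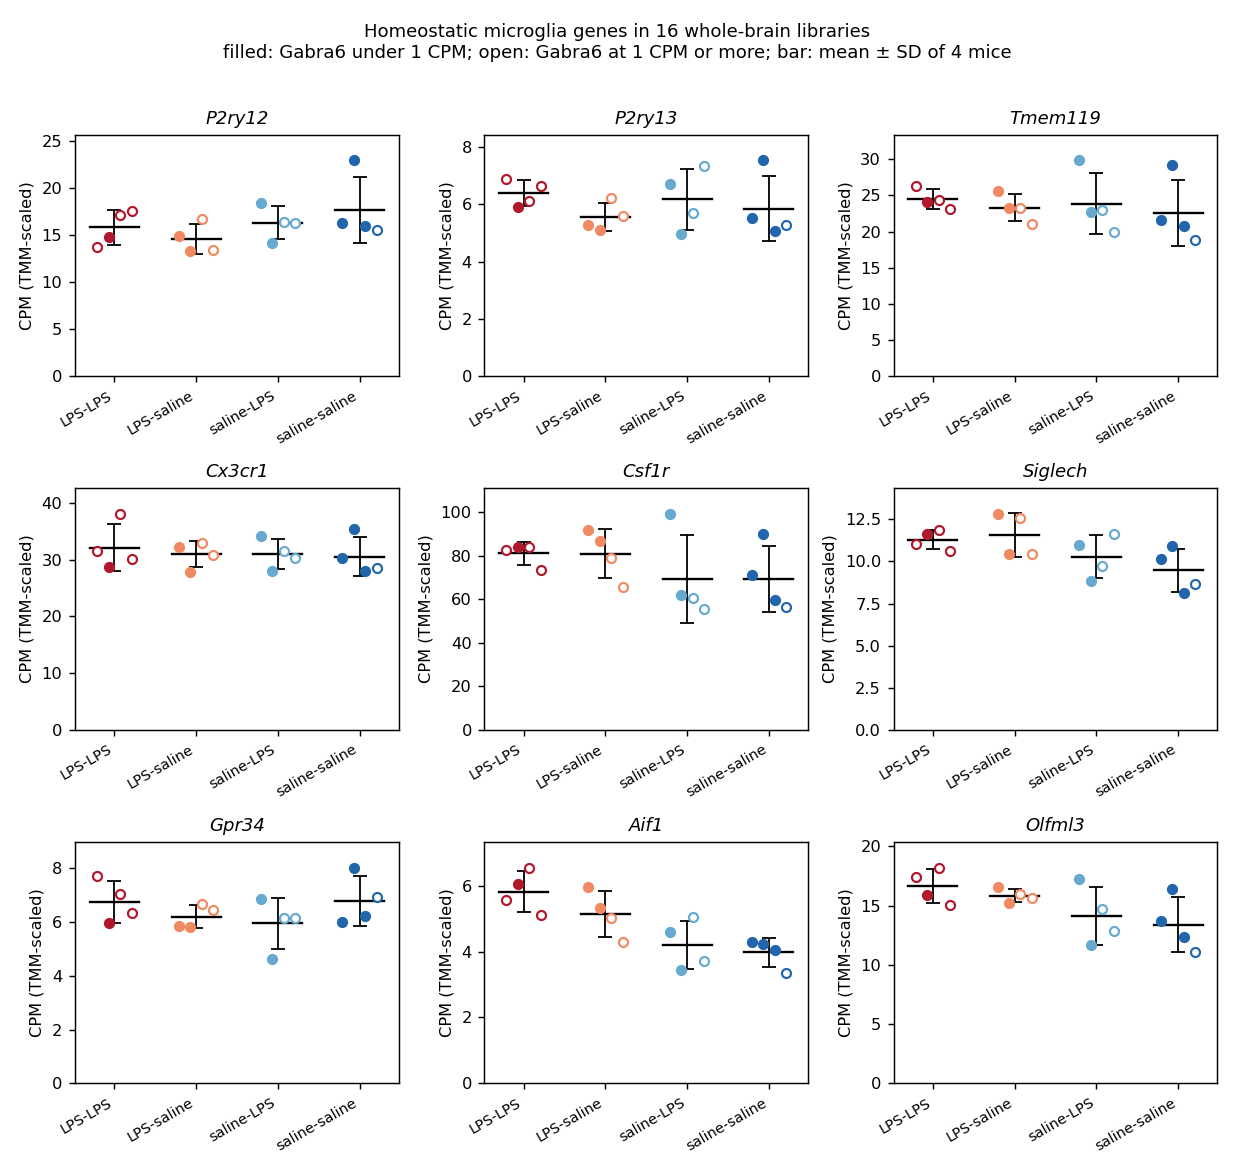
CPM of each gene (vertical axis, from 0) in each of 16 libraries, with LPS-LPS, LPS-saline, saline-LPS and saline-saline from left to right; bars are the mean ± SD of 4 mice, and filled symbols have Gabra6 under 1 CPM. For Aif1 all 4 LPS-LPS libraries (5.10 to 6.55 CPM) lie above all 4 saline-LPS libraries (3.45 to 5.03 CPM), while for P2ry12 and Cx3cr1 all groups overlap.

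Aif1 encodes Iba1, a calcium-binding protein that bundles actin during membrane ruffling and is the usual stain for microglia and other macrophages (ENSMUSG00000024397, chromosome 17, 35170991 to 35176068, minus strand). It measured 5.55, 6.06, 6.55 and 5.10 CPM in LPS-LPS and 5.97, 5.31, 5.02 and 4.29 CPM in LPS-saline. In the prenatal saline groups it measured 4.59, 3.45, 5.03 and 3.71 CPM in saline-LPS and 4.30, 4.24, 4.05 and 3.34 CPM in saline-saline. The LPS-LPS libraries did not overlap with those of saline-LPS or saline-saline, whereas the lowest LPS-saline library lay just under the highest saline-saline one.

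Averaged over the pubertal injection, Aif1 was at 5.48 ± 0.71 CPM after prenatal LPS and 4.09 ± 0.58 CPM after prenatal saline (SD, n = 8 each; log2 0.42 ± 0.097, edgeR adjusted p = 0.0128). Without LPS-LPS replicate 3 the difference was 0.39 (edgeR adjusted p = 0.0358). Among libraries under 1 CPM of Gabra6 (3 prenatal LPS, 5 prenatal saline) it was 0.50, and among the others (5 and 3) it was 0.44. Aif1 was not called in either of these smaller sets, while the size was not less. Each set left a single mouse in a group: LPS-LPS replicate 2 under 1 CPM and saline-saline replicate 4 among the others.

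By pair of groups, Aif1 was higher by 0.47 ± 0.137 in LPS-LPS than in saline-LPS, which missed the threshold (edgeR adjusted p = 0.129) and passed it with the replicate number as a block (adjusted p = 0.0457); without LPS-LPS replicate 3 it was higher by 0.41 (adjusted p = 0.344). In LPS-saline it was higher by 0.37 ± 0.137 than in saline-saline (edgeR adjusted p = 0.232). In edgeR 0 members were called between LPS-LPS and saline-LPS, where 0.609% of all tested genes were called, with 1 member at an unadjusted p under 0.05, against 14.0% of all tested genes, and 1 called by DESeq2. Between LPS-saline and saline-saline 0 were called as well, against 0.18% of all tested genes, with 4 members at an unadjusted p under 0.05, against 13.2% of all tested genes, and 0 called by DESeq2. These shares of all genes are from edgeR, and none is given for DESeq2. Groups without overlap were found for 4.96% of all genes, in the higher direction, between LPS-LPS and saline-LPS, where Aif1 was the 1 such member.

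With LPS at both times against saline at both, Aif1 was the 1 member called, higher by 0.54 ± 0.136 (edgeR adjusted p = 0.0225), where 4.27% of all tested genes were called higher and 9.63% were higher without overlap. This call was lost without saline-saline replicate 2 (adjusted p = 0.0516), saline-saline replicate 4 (0.0858) or LPS-LPS replicate 3 (log2 0.48, adjusted p = 0.089). The comparison shares its saline-saline mice with that of LPS-saline and its LPS-LPS mice with that of LPS-LPS against saline-LPS.

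P2ry12 is the ADP receptor that steers microglial processes towards damage and the gene most often used for the surveying state (ENSMUSG00000036353, chromosome 3, 59216272 to 59262871, minus strand). It measured 13.7, 14.8, 17.2 and 17.6 CPM in LPS-LPS, against 18.5, 14.2, 16.4 and 16.3 CPM in saline-LPS. It measured 14.9, 13.3, 16.7 and 13.4 CPM in LPS-saline, against 16.3, 23.0, 16.0 and 15.6 CPM in saline-saline. The groups overlapped, and saline-saline replicate 2 stood above all other libraries.

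The averaged prenatal difference of P2ry12 was -0.16 ± 0.085 (15.2 ± 1.74 CPM after prenatal LPS and 17.0 ± 2.68 CPM after prenatal saline, SD, n = 8 each; edgeR adjusted p = 0.268). In LPS-saline against saline-saline it was -0.28 ± 0.12 (edgeR adjusted p = 0.32) and without saline-saline replicate 2 it was -0.13. In LPS-LPS against saline-LPS it was -0.046 ± 0.121. It was the lowest log2 value of the 9 in all 3 of these comparisons, and it passed the threshold in none. Over all alternatives the averaged difference of P2ry12 ran from -0.27 to -0.026, against -0.20 to -0.087 with each library left out in turn. These alternatives include the fits within Gabra6 classes, each of which left a single mouse in a group.

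The neighbouring P2ry13, a second ADP receptor of microglia (chromosome 3, 59207892 to 59210882, minus strand, within the body of Med12l), ranged from 5.10 to 6.88 CPM after prenatal LPS and from 4.96 to 7.52 CPM after prenatal saline. The averaged difference was -0.014 ± 0.095. Gpr34, a receptor for lysophosphatidylserine (chromosome X, 13632089 to 13640858, plus strand, within the body of Cask), ranged from 5.80 to 7.71 CPM after prenatal LPS and from 4.62 to 8.03 CPM after prenatal saline, with a difference of 0.025 ± 0.088. For both genes the range after prenatal LPS lay within the range after prenatal saline.

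Cx3cr1, the receptor for the neuronal chemokine fractalkine (chromosome 9, 119901616 to 120069879, minus strand), was the steadiest member, with a within-group SD of 0.14 on the log2 scale. It had 31.5, 28.6, 38.1 and 30.1 CPM in LPS-LPS and 32.2, 27.8, 32.9 and 30.9 CPM in LPS-saline, against 34.3, 27.9, 31.5 and 30.3 CPM in saline-LPS and 30.2, 35.4, 27.95 and 28.6 CPM in saline-saline. The averaged prenatal difference was 0.034 ± 0.065, with a 95% interval from -0.10 to 0.17. Tmem119, a membrane protein that separates microglia from most other macrophages (chromosome 5, 113793729 to 113800516, minus strand), ranged from 21.1 to 26.3 CPM after prenatal LPS and from 18.8 to 29.8 CPM after prenatal saline. Its difference was 0.040 ± 0.087, with an interval from -0.14 to 0.22, and it turned to -0.058 when trends with GC content and exon length were removed.

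Csf1r, the receptor tyrosine kinase on which microglia depend (ENSMUSG00000024621, chromosome 18, 61100598 to 61132149, plus strand), varied most, with a within-group SD of 0.27 on the log2 scale. It had 82.6, 84.1, 84.0 and 73.2 CPM in LPS-LPS, against 99.1, 62.1, 60.5 and 55.6 CPM in saline-LPS. It had 91.8, 86.5, 79.0 and 65.8 CPM in LPS-saline, against 70.9, 89.7, 59.6 and 56.4 CPM in saline-saline. In each prenatal saline group 1 mouse stood above the other 3. Without that mouse saline-LPS no longer overlapped with LPS-LPS, while saline-saline still overlapped with LPS-saline. These mice were picked from the same values, so this is a description and not a test.

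The averaged prenatal difference of Csf1r was 0.22 ± 0.129 (edgeR adjusted p = 0.33) and 0.34 without saline-LPS replicate 1 (edgeR adjusted p = 0.0545). With each library left out in turn it ran from 0.18 to 0.34. It was 0.17 among libraries under 1 CPM of Gabra6 and 0.41 among the others. Each of these 2 fits left a single mouse in a group, so only sizes are given. The high mouse of each prenatal saline group (saline-saline replicate 2 and saline-LPS replicate 1) was under 1 CPM of Gabra6. Of its 5774 exonic bases, 873 overlap with exons of Hmgxb3 on the opposite strand. Whether the counting used strand is not given in the sources used here. Counted without strand, reads from this stretch would fall to several genes, and such reads stayed out of the counts. How much of this stretch was counted for Csf1r is thus not known.

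Siglech, a sialic-acid-binding surface protein of mouse microglia (chromosome 7, 55768178 to 55778925, plus strand), had 11.04, 11.62, 11.86 and 10.62 CPM in LPS-LPS and 12.8, 10.4, 12.6 and 10.5 CPM in LPS-saline. It had 11.002, 8.82, 9.71 and 11.62 CPM in saline-LPS and 10.1, 10.9, 8.13 and 8.67 CPM in saline-saline. The averaged difference was 0.21 ± 0.076 and missed the threshold (edgeR adjusted p = 0.0943), with overlapping groups.

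Olfml3, a secreted olfactomedin-like glycoprotein of microglia (chromosome 3, 103722222 to 103738001, minus strand), had 17.4, 15.9, 18.2 and 15.1 CPM in LPS-LPS and 16.5, 15.2, 16.0 and 15.6 CPM in LPS-saline. It had 17.3, 11.7, 14.7 and 12.8 CPM in saline-LPS and 13.7, 16.4, 12.4 and 11.1 CPM in saline-saline. All 8 mice of prenatal LPS lay within 15.1 to 18.2 CPM, while those of prenatal saline spread from 11.1 to 17.3 CPM. The averaged difference was 0.24 ± 0.082 (edgeR adjusted p = 0.077). It passed the threshold without saline-saline replicate 2 (adjusted p = 0.0342) or without saline-LPS replicate 1 (0.0221), and with DESeq2 (adjusted p = 0.0476). It was 0.14 among libraries under 1 CPM of Gabra6 and 0.40 among the others, and each of these fits left a single mouse in a group.

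**Figure D2:**
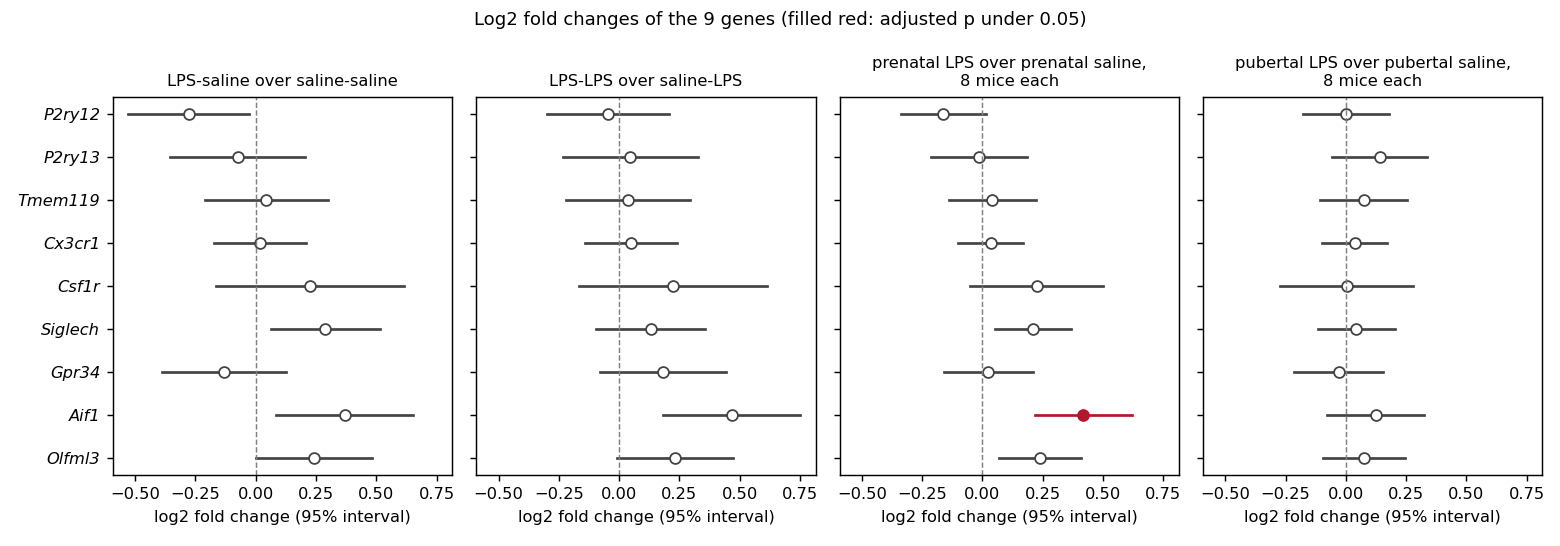
Log2 fold change (horizontal axis, points) with its 95% interval (lines) for each of the 9 genes in 4 comparisons, the group named ahead of "over" on top of the ratio; red and filled marks an adjusted p under 0.05. Aif1 at 0.42 in the averaged prenatal comparison is the 1 filled point, P2ry12 is the leftmost of the 9 in the 3 prenatal panels, and the pubertal panel runs from -0.029 to 0.14.

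Pubertal LPS was given 2 days before collection, and this comparison asks for a difference that the recent injection left. None of the 9 genes was called after prenatal saline, after prenatal LPS or averaged over both, and the interaction of the injections called none either. In edgeR 0% of all tested genes were called in each of these 4 comparisons, with 535, 756, 947 and 402 genes at an unadjusted p under 0.05 and 0 members among them; DESeq2 also called 0 members. In saline-LPS against saline-saline the members ran from -0.19 (Gpr34) to 0.12 (Siglech), and in LPS-LPS against LPS-saline from -0.035 (Siglech) to 0.20 (P2ry13). Averaged, P2ry12 differed by 0.00099 ± 0.085 with a 95% interval from -0.18 to 0.18, and Aif1 by 0.12 ± 0.097 with an interval from -0.076 to 0.33. The interaction was largest for Gpr34, at 0.31 ± 0.177 (unadjusted p = 0.0906 in edgeR).

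The summed level of the set overlapped between all groups. It was 202.8, 197.0, 213.4 and 187.7 CPM in LPS-LPS and 211.0, 192.8, 198.3 and 173.6 CPM in LPS-saline. It was 228.0, 160.4, 172.7 and 163.8 CPM in saline-LPS and 178.7, 224.5, 160.1 and 154.7 CPM in saline-saline. The highest 2 values and the lowest 2 of the 16 all belonged to prenatal saline, and the SD was 12.8 CPM over 8 mice of prenatal LPS and 29.3 CPM over 8 mice of prenatal saline, around means of 197.1 CPM after prenatal LPS and 180.4 CPM after prenatal saline. This difference in spread was not tested. Csf1r alone made up 41.0% of the sum after prenatal LPS and 38.1% after prenatal saline.

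Within the set the balance between P2ry12 and Aif1 is given as a description of 1 pair of 36, picked after its values were seen. The ratio of P2ry12 to Aif1 was 2.75 ± 0.48 in LPS-LPS (2.44 to 3.45, with replicate 3 inside this range), against 3.94 ± 0.49 in saline-LPS (3.25 to 4.40). It was 2.87 ± 0.42 in LPS-saline (2.5 to 3.33), against 4.45 ± 0.74 in saline-saline (3.80 to 5.42). LPS-saline and saline-saline did not overlap, while LPS-LPS and saline-LPS did. How many of the 36 pairs were without overlap between LPS-saline and saline-saline was not counted. On the log2 scale this pair differed by -0.58 between prenatal LPS and prenatal saline, the largest of the 36 pair differences. That rank follows from the choice of pair, since it joins the genes with the lowest and the highest averaged log2 fold change of the set. For 0 of 36 pairs were all 8 mice of prenatal LPS apart from all 8 of prenatal saline.

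Relative to the mean log2 level of the other 8 genes, P2ry12 stood at 0.046 ± 0.21 in LPS-LPS and 0.014 ± 0.098 in LPS-saline, against 0.28 ± 0.044 in saline-LPS and 0.41 ± 0.087 in saline-saline. Aif1 stood at -1.58 ± 0.13 in LPS-LPS and -1.68 ± 0.17 in LPS-saline, against -1.94 ± 0.20 in saline-LPS and -1.996 ± 0.19 in saline-saline. P2ry12 held 7.73 ± 0.87% of the summed level after prenatal LPS and 9.47 ± 0.74% after prenatal saline. These measures contain the gene differences given above and are not independent of them.

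**Figure D3:**
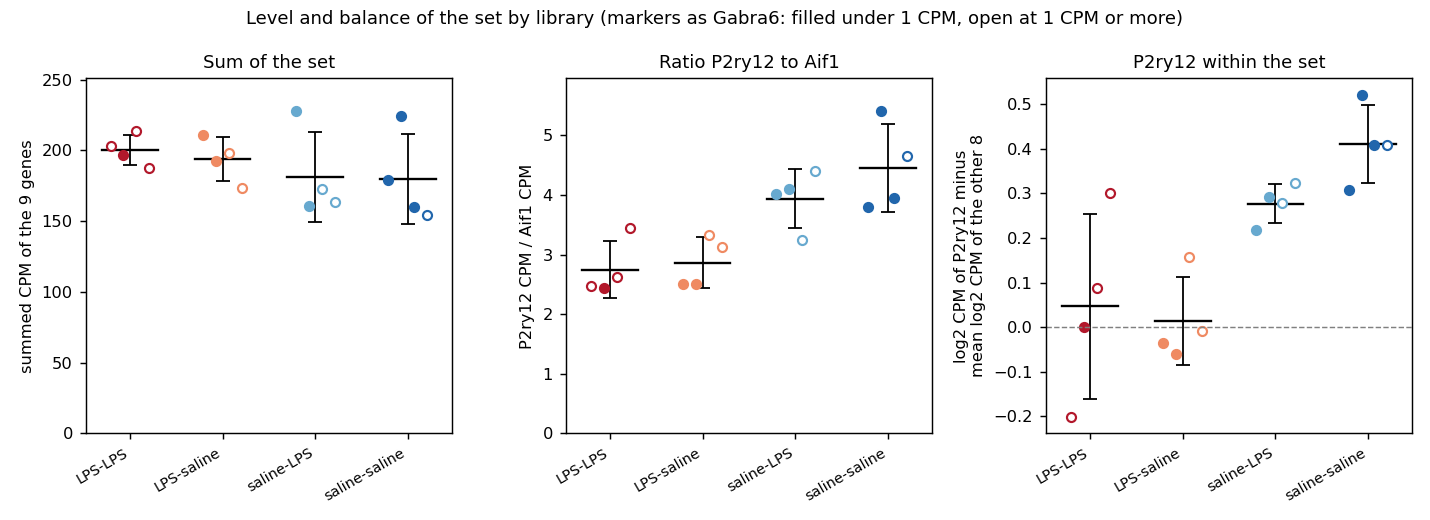
Summed CPM of the 9 genes (left), ratio of P2ry12 to Aif1 CPM (middle) and log2 CPM of P2ry12 minus the mean log2 CPM of the other 8 genes (right) in each library, with LPS-LPS, LPS-saline, saline-LPS and saline-saline from left to right and bars at the mean ± SD of 4 mice. The sums overlap in all groups, while the ratio is at most 3.33 in LPS-saline and at least 3.80 in saline-saline.

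The 9 genes moved together between mice of the same group. After subtraction of group means from log2 CPM, Pearson's r over 16 libraries was 0.94 for Tmem119 with Csf1r and 0.037 for P2ry13 with Aif1, the highest and lowest of 36 pairs. The median was 0.59, 25 pairs were over 0.5 and 0 pairs were below 0. The adenosine diphosphate and lipid receptors P2ry13 and Gpr34 paired at 0.77 and P2ry12 with Cx3cr1 at 0.76. Aif1 had low values with P2ry13 (0.037), Gpr34 (0.20) and P2ry12 (0.37) and a higher one with Olfml3 (0.70). All points share their library, its depth and its dissection, so these values describe the 16 libraries.

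**Figure D4:**
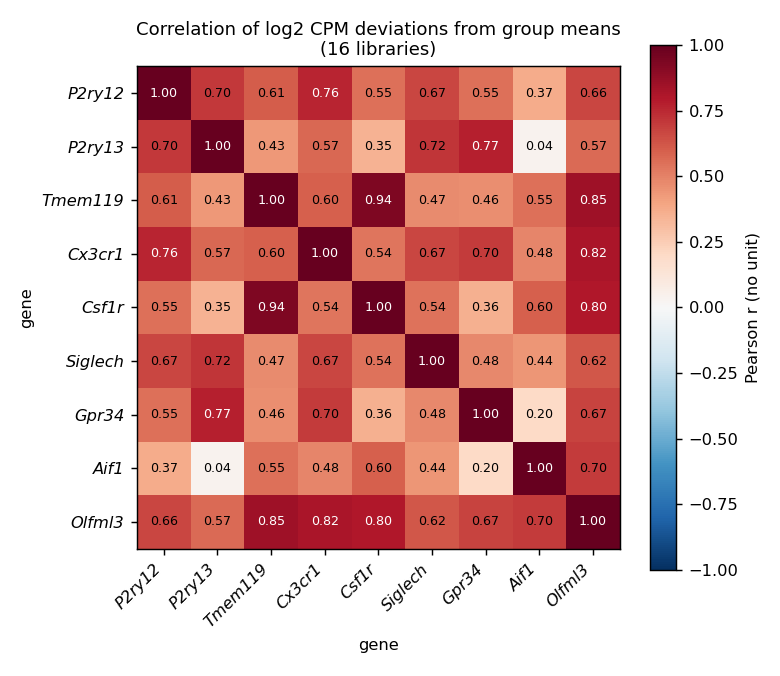
Pearson's r (colour and printed value, no unit) between the 9 genes on both axes, from log2 CPM with group means removed in 16 libraries. Tmem119 with Csf1r is highest at 0.94, and the Aif1 row is palest, down to 0.037 with P2ry13.

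Among 15230 tested genes with a mean of at least 1 CPM, those most like the mean of the set over the 16 libraries included Slc6a11, a GABA transporter of astrocytes (r = 0.93), Plpp3 (0.91), the predicted gene Gm45591 (0.91), Ptpn6, a phosphatase of blood lineage cells (0.90), Slc2a5, a fructose transporter (0.90), Cd14, the LPS co-receptor (0.90), Epb41l2 (0.90), Mpeg1, a perforin-like protein of macrophages (0.90), and Fcrls, a microglial Fc-receptor-like protein (0.89). The single gene most like each member was Selplg for Tmem119 (0.97), Laptm5 for Csf1r (0.97), Plcb3 for Olfml3 (0.92), Jam2 for P2ry13 (0.91), Lmnb1 for Gpr34 (0.91), Hmox1 for Cx3cr1 (0.88), Abhd11os for Aif1 (0.88), Ryk for Siglech (0.86) and Mcur1 for P2ry12 (0.85).

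The gene lists that follow were chosen with earlier results of these data known, so their counts are descriptions. Of 8 tested ligands of microglial receptors, 1 was called in the averaged prenatal comparison, where 4.9% of all tested genes were called higher. Il34, the neuronal ligand of Csf1r, was higher after prenatal LPS by 0.14 ± 0.042 (59.2 ± 3.03 CPM after prenatal LPS and 53.9 ± 2.82 CPM after prenatal saline, SD, n = 8 each; edgeR adjusted p = 0.0497). Csf1 differed by -0.062 ± 0.075 and fractalkine, Cx3cl1, by 0.069 ± 0.053, neither called. The list's median was 0.032, against -0.0054 for all tested genes.

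The counts below are for the averaged prenatal comparison, in which 4.9% of all tested genes were called higher and 2.92% lower. Of 27 tested receptor and signalling genes of microglial survival, 4 rose after prenatal LPS and 0 fell, with a list median of 0.059. They were Trem2, a lipid receptor (0.51 ± 0.068, adjusted p = 0.000322), its adaptor Tyrobp (0.50 ± 0.073, adjusted p = 0.000682), the integrin Itgb5 (0.21 ± 0.06, adjusted p = 0.0383) and P2ry6, a receptor for uridine nucleotides that drives phagocytosis (0.38 ± 0.115, adjusted p = 0.0465), all by edgeR. Of 14 transcription factors, 2 rose and 0 fell, with a list median of 0.055. Spi1 was at 6.11 ± 0.69 CPM after prenatal LPS and 4.32 ± 0.32 CPM after prenatal saline (log2 0.50 ± 0.083, edgeR adjusted p = 0.00177). Irf8, its partner in myeloid cells, was higher by 0.35 ± 0.1 (edgeR adjusted p = 0.036).

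Other core genes of microglia gave 10 of 30 tested genes higher and 0 lower, with a median of 0.22. The complement gene C1qb was higher by 0.51 ± 0.055, C1qa by 0.52 ± 0.066, the lysosomal protease Ctss by 0.68 ± 0.082 and Pld4 by 0.56 ± 0.077 (edgeR adjusted p from 1.89e-05 to 0.000368). The remaining 6 were C1qc, Rgs10, Unc93b1, Fcer1g, Laptm5 and Bin2. Over the whole list 27 of the 30 differences were above 0. Fcrls (0.22 ± 0.094) and Slc2a5 (-0.18 ± 0.11), markers of microglial identity within this list, were not called. Nor was Sall1 (0.031 ± 0.086), already counted among the transcription factors.

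Of 32 tested activation genes, 13 rose and 0 fell, with a median of 0.34. Lyz2, a lysozyme of macrophages, was at 12.9 ± 1.34 CPM after prenatal LPS and 6.75 ± 0.97 CPM after prenatal saline (log2 0.94 ± 0.078, edgeR adjusted p = 7.05e-07). The Fc receptor Fcgr3 was higher by 0.59 ± 0.077, the oxidase subunit Cyba by 0.51 ± 0.081 and the protease Ctsz by 0.34 ± 0.054 (edgeR adjusted p from 0.000259 to 0.00163). The others were Apoe, Ctsd, Ftl1, Fcgr4, Cd52, Cd68, Fcgr2b, Tspo and Ctsb. Ccl3, Ccl4, Il1b and Tnf did not pass the low-count filter. Of 12 cell cycle genes 0 were called in edgeR, with 3 at an unadjusted p under 0.05 and a median of 0.16; over all tested genes 23.2% were at an unadjusted p under 0.05, a share close to 3 of 12.

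Without LPS-LPS replicate 3 the averaged prenatal comparison called 21 of the 123 tested list genes higher, against 30 with it, and 0 lower either way. The calls lost were Il34 (log2 0.12, adjusted p = 0.116), Itgb5 (0.19, adjusted p = 0.0905), P2ry6 (0.41, adjusted p = 0.0531), Irf8 (0.32, adjusted p = 0.0818), Laptm5, Bin2, Ctsb, Fcgr2b and Tspo, all by edgeR. Trem2 (0.49), Tyrobp (0.48), Spi1 (0.47), C1qb (0.50) and Lyz2 (0.93) were among those still called. With each library left out in turn the count ran from 21 to 33.

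By pair of groups, LPS-LPS against saline-LPS called 2 receptor genes, 1 transcription factor (Spi1), 5 core genes and 5 activation genes higher and 0 lower, where 0.562% of all tested genes were called higher. These 13 calls became 4 without LPS-LPS replicate 3, 6 without LPS-LPS replicate 1 and 8 without LPS-LPS replicate 4. LPS-saline against saline-saline called 1 receptor gene (Trem2), 0 transcription factors, 4 core genes and 2 activation genes higher and 0 lower, where 0.148% of all tested genes were called higher. These 7 calls became 2 without saline-saline replicate 1, 3 or 4 or LPS-saline replicate 1 or 3, 3 without LPS-saline replicate 2, 14 without LPS-saline replicate 4 and 16 without saline-LPS replicate 1.

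With LPS at both times against saline at both, 2 receptor genes, 2 transcription factors, 8 core genes and 11 activation genes were higher, while the signalling gene Smad4 (-0.23 ± 0.064, edgeR adjusted p = 0.0367) and the core gene Golm1 (-0.32 ± 0.088, adjusted p = 0.0311) were lower. Over all tested genes 4.27% were called higher and 2.29% lower in this comparison. The 23 higher calls became 16 and the 2 lower calls became 0 without LPS-LPS replicate 3; the lower calls were also lost without saline-saline replicate 1, 2 or 4 or LPS-LPS replicate 1 or 4. The comparisons of pubertal LPS and the interaction called 0 of the 123 tested genes of these lists in edgeR, with 5, 3 and 7 at an unadjusted p under 0.05 for pubertal LPS after prenatal saline, after prenatal LPS and averaged, and 3 for the interaction.

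**Figure D5:**
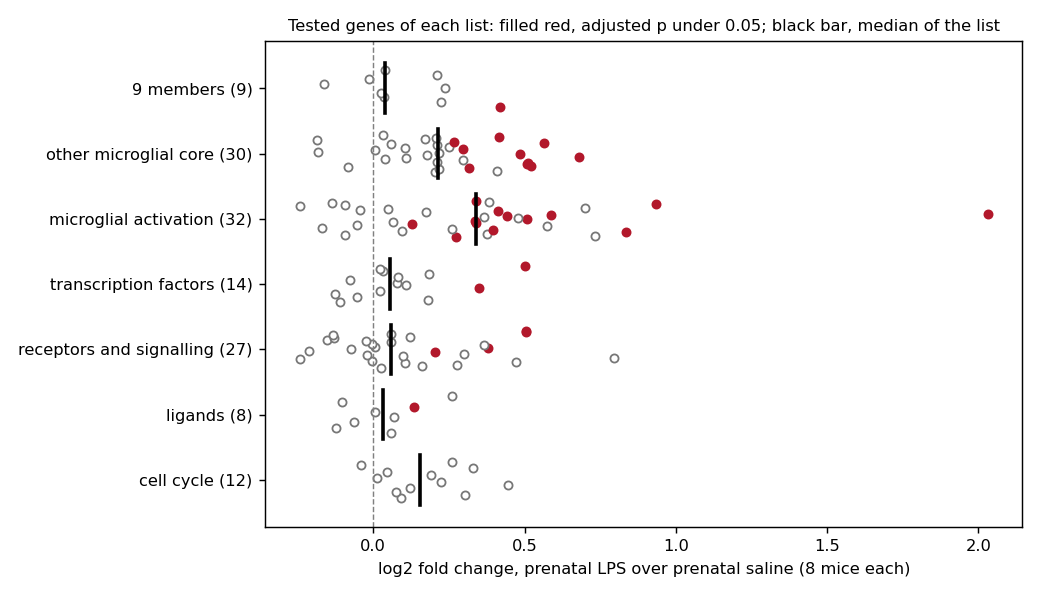
Log2 fold change of prenatal LPS over prenatal saline (horizontal axis, 8 mice each) for every tested gene of the set and of 6 lists, with the number tested in parentheses, red and filled for an adjusted p under 0.05 and a black bar at the list's median. The bar of the 9 genes lies at 0.040, that of the other core genes at 0.22 and that of the activation genes at 0.34.

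Markers of cells that share genes with microglia were summed per library. Border macrophage markers (10 genes, all tested) summed to 37.9 to 51.1 CPM after prenatal LPS and 37.7 to 57.2 CPM after prenatal saline, 0 of them called, and followed the summed level of the 9 genes across libraries (Spearman's rho 0.78 over 16 libraries, a description). Monocyte markers (3 of 8 tested) summed to 92.8 to 126.1 CPM after prenatal LPS and 94.2 to 135.0 CPM after prenatal saline. The rest of the monocyte markers did not pass the low-count filter, so this sum rests mainly on the 3 tested. It is not a measure of monocyte number, and whether other brain cells supply it was not tested.

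Neutrophil markers (4 of 8 tested) summed to 1.98 to 5.60 CPM after prenatal LPS and 0.94 to 4.09 CPM after prenatal saline, and lymphocyte markers (3 of 10 tested) to 7.33 to 10.6 CPM after prenatal LPS and 6.87 to 9.78 CPM after prenatal saline. The ranges of these 4 marker sums overlapped between prenatal LPS and prenatal saline. Of these markers 0 were at 0 counts in all libraries, and the natural killer gene Klrb1c was under 3 counts in each. The part of such cells in the levels of Aif1, Csf1r and Cx3cr1, which other macrophages also express, was not tested.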

How the data were processed

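Whole-number read counts per Ensembl gene were deposited, 1 file per mouse; per the submitters' processing notes the authors used STAR 2.5.2b and HTSeq 0.11.2 on GRCm38. The strand setting, annotation release and read filters were not given in the sources used here. Reads that HTSeq assigned to no gene (8.37 to 11.05%), to several genes (5.11 to 5.48%) or that were not uniquely aligned (3.18 to 3.90%) stayed out of library sizes and tests. Symbols, coordinates and exon lengths came from GENCODE M21 (49412 identifiers matched, 259 not).

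Counts were tested with edgeR 4.0.16 in R 4.3.3: filterByExpr, TMM scaling and a robust quasi-likelihood model of 4 group means over all 16 libraries, with contrasts between groups, two-sided, and Benjamini-Hochberg adjustment over 18875 genes at a threshold of 0.05, with a biological coefficient of variation of 10.4%. Log2 CPM used a prior count of 2. The tests were tried on simulated counts with known changes. Reads carry no molecular identifiers.

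The members and the gene lists were chosen with earlier results of these data known. All 9 members are named; from each list, called genes are named and at most 4 with the smallest p are given with values, except that the ligands Csf1, Il34 and Cx3cl1 and the microglial markers Fcrls, Sall1 and Slc2a5 are always given; 1 gene that these rules name is not reported here. Like genes were ranked by Pearson's r of log2 CPM deviations from group means.

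Replicate numbers in the titles were checked as pairs: deviations over 15230 genes correlated above 0.1 for every same-numbered pair of LPS-LPS with saline-LPS (0.284 to 0.367), LPS-saline with saline-saline (0.115 to 0.578) and LPS-LPS with LPS-saline (0.156 to 0.363), but not of saline-saline with saline-LPS or LPS-LPS. No libraries were duplicates. Alternatives were DESeq2 1.42.0 and its size factors, no filter, the replicate block, GC and length correction (natural splines, 5 degrees of freedom), Gabra6 as a covariate, fits within Gabra6 classes and leaving out each library; for the lists, leaving out each library was chosen after seeing the data.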

Additional observations from a re-analysis of the deposited data

Results flagged for a closer look

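Within 36 combinations of gene and group, each of 4 mice, 3 held a library whose gap to its nearest neighbour was a larger part of the group's range than Dixon's 95% critical value allows. Chance flags about 1 in 20 such groups. P2ry12 in saline-saline replicate 2 was at 23.0 CPM, with the next highest mouse of the group at 16.3 CPM. Csf1r in LPS-LPS replicate 4 was lowest at 73.2 CPM, with the next at 82.6 CPM. Csf1r in saline-LPS replicate 1 was at 99.1 CPM, with the next at 62.1 CPM. The summed level of the 9 genes was also highest of its group in saline-saline replicate 2 (224.5 CPM) and in saline-LPS replicate 1 (228.0 CPM). What sets these mice apart was not tested.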

How the results depend on the processing

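Across the alternatives, 170 recalculated counts of called members kept their side of the main count, 4 were lower and 12 higher; among recalculated fold changes 1139 kept their direction and call, and 57 changed sign, each of them a small value that was not called. Prenatal LPS before pubertal LPS called 1 member, Aif1, with DESeq2, with the replicate block and with the Gabra6 covariate, against 0. Every replicate 2 was under 1 CPM of Gabra6 and every replicate 4 was above it, so the block and the covariate are not independent settings. The averaged prenatal comparison called 2 members (Aif1 and Olfml3) with DESeq2, with the replicate block, with the replicate block and GC and length correction, and with the Gabra6 covariate, and 1 to 2 with a library left out. The fits within Gabra6 classes, included in the totals above, each left a single mouse in a group, so their calls are not listed. LPS at both times against neither called 2 with the replicate block and GC and length correction and with the Gabra6 covariate, and 0 to 1 with a library left out (0 without saline-saline replicate 2 or 4 or LPS-LPS replicate 3). The replicate block changed no other call. For 9 of 16 libraries the mean correlation of deviations with libraries of other groups was highest for those of their own number. The shares of all genes called under these alternatives are not given here, so the changed member counts are not set against a background. The causes were not tested.

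GC and length correction turned the prenatal difference of Tmem119 to -0.052 before pubertal saline, -0.064 before pubertal LPS, -0.058 averaged and -0.019 for LPS at both times; with the replicate block as well, to -0.048, -0.061, -0.055 and -0.013. In the averaged prenatal comparison, libraries under 1 CPM of Gabra6 turned Tmem119 to -0.050, Cx3cr1 to -0.093 and Gpr34 to -0.085, and the others turned P2ry13 to 0.090. P2ry12 in the averaged pubertal comparison turned to -0.0027 without the filter, -0.027 with GC and length correction and -0.024 with the block as well.

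With each library left out in turn, the fold changes of some genes ran across 0. In LPS-saline against saline-saline these were P2ry13 -0.14 to 0.069, Tmem119 -0.034 to 0.19, Cx3cr1 -0.026 to 0.097. In LPS-LPS against saline-LPS they were P2ry12 -0.11 to 0.019, P2ry13 -0.041 to 0.14, Tmem119 -0.042 to 0.16, Cx3cr1 -0.042 to 0.10. For prenatal LPS averaged they were P2ry13 -0.058 to 0.058, Cx3cr1 -0.012 to 0.073, Gpr34 -0.025 to 0.070. For LPS at both times they were Cx3cr1 -0.021 to 0.15, Gpr34 -0.074 to 0.086. For pubertal LPS they were, after prenatal saline, P2ry12 -0.18 to 0.035, Aif1 -0.022 to 0.16, after prenatal LPS, Siglech -0.084 to 0.017, and averaged, P2ry12 -0.032 to 0.076, Gpr34 -0.067 to 0.021.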
